A study of Mus musculus with 15 samples.

Results

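The Hox genes, which encode the homeodomain transcription factors of the Hoxa, Hoxb, Hoxc and Hoxd clusters, were followed in RNA-seq of mouse colonic crypts. Members were all rows of the deposited count table whose mouse symbol is Hoxa, Hoxb, Hoxc or Hoxd followed only by a number. This gave 37 genes of 32939 rows. The groups were FL-shAlpl (WT mice on the CDAA diet with fatty liver, given AAV-shAlpl), FL-shGFP (WT mice on the same diet with fatty liver, given AAV-shGFP) and NL-shGFP (WT mice on normal diet with normal liver, given AAV-shGFP), with 5 libraries each. CDAA is a choline-deficient, amino-acid-defined diet that is used to produce fatty liver, AAV is a viral vector, and shAlpl is a short hairpin RNA against Alpl, the tissue-nonspecific alkaline phosphatase. All 3 groups thus carried a hairpin vector. The promoter that drives the hairpins, the ages of the mice and the stretch of colon that was sampled were not stated in these sources. Nothing in the labels marks the replicates as separate mice, so p-values cover the spread between these samples, which may be technical.

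Hox genes lie in each cluster in the order in which they are used along the body axis, and the paralogue number gives that place, from head (low numbers) to tail (high numbers). In the gut, the genes of the highest paralogue numbers are used in the hindgut, which forms the distal colon and rectum, and the adult colon epithelium keeps part of this regional pattern. Caudal factors such as Cdx2 act upstream of the clusters, Polycomb complexes hold unused Hox genes silent, Trithorax complexes keep used ones active, and TALE homeodomain proteins such as Pbx and Meis bind DNA together with Hox proteins.

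The 37 members split into 11 Hoxa genes on chromosome 6, 10 Hoxb genes on chromosome 11, 7 Hoxc genes on chromosome 15 and 9 Hoxd genes on chromosome 2. Of these, 27 have paralogue numbers 1 to 9 and 10 have numbers 10 to 13. Hoxc12 and Hoxc13 were not analysed here. In GENCODE on GRCm38, a gap of 74.0 kb separates Hoxb13 from Hoxb9, and Hoxb13 (chr11:96194316-96197447) is the only member of its cluster with a number above 9. To show the letters in front of genes that moved in opposite directions below, the 250 bases upstream of the start (RefSeq, GRCm38, gene strand) are printed for 2 paralogue 13 genes, Hoxa13 (chr6:52260881-52261130, minus strand) and Hoxd13 (chr2:74667975-74668224, plus strand), and for Hoxb8 (chr11:96281655-96281904, plus strand) and Hoxd4 (chr2:74721728-74721977, plus strand). Capitals mark matches to TTTATNG, a core shared by binding motifs of caudal and posterior Hox proteins, the only motif searched, on both strands.
Hoxa13: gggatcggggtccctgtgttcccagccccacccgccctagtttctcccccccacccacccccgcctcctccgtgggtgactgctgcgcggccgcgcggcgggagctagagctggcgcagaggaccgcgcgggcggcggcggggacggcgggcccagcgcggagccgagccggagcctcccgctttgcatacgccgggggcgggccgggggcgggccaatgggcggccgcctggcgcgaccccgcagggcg
Hoxd13: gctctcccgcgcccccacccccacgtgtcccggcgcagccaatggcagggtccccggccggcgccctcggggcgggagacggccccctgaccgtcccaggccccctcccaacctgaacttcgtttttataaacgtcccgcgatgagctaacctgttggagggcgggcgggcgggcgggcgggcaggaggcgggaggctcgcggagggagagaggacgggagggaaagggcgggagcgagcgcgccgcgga
Hoxb8: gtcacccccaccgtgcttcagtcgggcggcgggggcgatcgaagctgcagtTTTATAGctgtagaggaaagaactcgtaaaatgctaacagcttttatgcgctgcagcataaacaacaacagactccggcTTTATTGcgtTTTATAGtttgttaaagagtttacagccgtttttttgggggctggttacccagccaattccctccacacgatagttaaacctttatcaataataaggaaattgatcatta
Hoxd4: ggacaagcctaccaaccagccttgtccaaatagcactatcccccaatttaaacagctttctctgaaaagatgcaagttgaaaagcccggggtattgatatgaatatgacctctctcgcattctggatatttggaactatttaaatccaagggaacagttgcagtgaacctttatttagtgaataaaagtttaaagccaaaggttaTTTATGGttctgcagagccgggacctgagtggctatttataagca
The Hoxa13 and Hoxd13 windows are rich in CG dinucleotides, with 35 and 31 of them, against 12 in Hoxb8, 3 in Hoxd4 and a median of 6 over 32851 mouse promoters. TTTATNG matched 3 times in Hoxb8 and 1 time in Hoxd4. Over the 24 promoter entries of 22 Hox genes, these were the 2 with a match, beside 9.81% of all promoters. Among other genes lower in FL-shGFP against NL-shGFP, the windows held from 3 (Hoxa9) to 28 (Hoxa5) CG dinucleotides and no match. Hoxd9 and Hoxd10, which rose there, had 13 and 20 CG dinucleotides and no match. The CG counts of risers and fallers thus overlapped, and a match was absent from most fallers with an entry. Whether either feature goes with direction was not tested. The printed letters describe their own windows only.

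Library totals were 42071168 to 58590251 counts in FL-shAlpl, 37490405 to 51669018 counts in FL-shGFP and 33272941 to 41352922 counts in NL-shGFP libraries. Alpl itself had 0 to 0.0280 FPKM in FL-shAlpl, 0.0672 to 0.165 FPKM in FL-shGFP and 0 to 0.0120 FPKM in NL-shGFP crypts. It was lower in FL-shAlpl than in FL-shGFP crypts by a log2 fold change of -3.16 ± 0.63 (edgeR adjusted p = 0.00197), at levels under 1 FPKM in all 15 libraries. No liver RNA was analysed here, so whether Alpl was lowered in the liver could not be checked. Summed CPM (counts scaled to a common library total) of 5 colon epithelium markers was 9105 to 15540.0 in FL-shAlpl, 17790.0 to 22450.0 in FL-shGFP and 20090.0 to 27360.0 in NL-shGFP libraries. These sums overlapped between FL-shGFP and NL-shGFP, and lay below both in FL-shAlpl. The sum of 8 small intestine markers was 134.5 to 735 CPM in FL-shAlpl, 151 to 639 CPM in FL-shGFP and 39.8 to 100.1 CPM in NL-shGFP libraries. In the small intestine sums neither fatty liver group overlapped NL-shGFP. Of 5 small intestine markers tested, 3 rose in FL-shGFP against NL-shGFP (median log2 fold change 2.80), 2 rose in FL-shAlpl against NL-shGFP (median 1.87), and 2 rose and 2 fell in FL-shAlpl against FL-shGFP (median -0.93). Of all genes tested, 46.7%, 17.4% and 36.0% were called in these comparisons, in the same order. The 2 that rose against FL-shGFP, Lyz1 and Fabp6, had maxima of 230.4 and 233.2 FPKM in FL-shAlpl, against group means of 49.09 and 58.75 FPKM. FL-shAlpl replicate 1 held the 735 CPM, the others at most 302.5 CPM, and it had the lowest posterior Hox share of that group. As groups, these markers of another gut region were higher in fatty liver than in NL-shGFP, as were the posterior Hox sums below. Their part in the Hox results was not tested. All 8 epithelial, 9 fibroblast and 7 leukocyte markers had counts in every group. FL-shGFP libraries had the highest sums of 6 smooth muscle markers (4.82 to 21.0 CPM, against 1.35 to 3.19 CPM in NL-shGFP) and of leukocyte markers (104 to 269 CPM, against 36.9 to 88.5 CPM). Crypt stem cell markers (6 genes such as Lgr5) summed to 66.5 to 155 CPM in FL-shAlpl, 39.9 to 76.0 CPM in FL-shGFP and 185 to 267 CPM in NL-shGFP libraries. In bulk RNA, fewer cells of a type and less RNA per cell cannot be told apart. Mitochondrially encoded genes took 19.9 ± 4.03% of counts in FL-shAlpl, 16.7 ± 3.32% in FL-shGFP and 33.2 ± 3.98% in NL-shGFP libraries (SD, n = 5 each). NL-shGFP replicates 3 and 4, and likewise 1 and 2, were closer to each other than any other pair of a group, although they differed beyond sampling noise, and were kept apart. With each pair summed, edgeR called 17 Hox genes in FL-shGFP against NL-shGFP, 7 in FL-shAlpl against FL-shGFP and 5 in FL-shAlpl against NL-shGFP, and the calls lost that way are named with each comparison below. The filter then let 18434 genes into the test, since the smallest group was smaller.

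Hox RNA in NL-shGFP crypts came mostly from paralogues 1 to 9, while in both fatty liver groups paralogues 10 to 13, and above all Hoxb13, gave 47.3 to 56.0% of it on average. FPKM (fragments per kilobase of transcript, scaled to the library total) is a level per length, so it can be summed over genes. Paralogues 10 to 13 took 48.2, 66, 50.8, 53.7 and 61.4% of the summed Hox FPKM in FL-shAlpl replicates 1 to 5, 58.5, 65.1, 28.4, 63.3 and 21.3% in FL-shGFP replicates and 7.21, 7.28, 11.6, 13 and 13.9% in NL-shGFP replicates, an order of replicates kept for all lists of values below. No library of either fatty liver group overlapped the NL-shGFP range. FL-shGFP replicates 3 and 5 stood apart from the other three FL-shGFP libraries with low shares. The means were 56.0 ± 7.44% in FL-shAlpl, 47.3 ± 20.8% in FL-shGFP and 10.6 ± 3.15% in NL-shGFP crypts (SD, n = 5 each). The FL-shAlpl mean was 8.70 percentage points above the FL-shGFP mean, which is within the spread of FL-shGFP libraries, and 2.20 points above it without FL-shGFP replicate 5. No p is given for these sums.

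**Figure D1:**
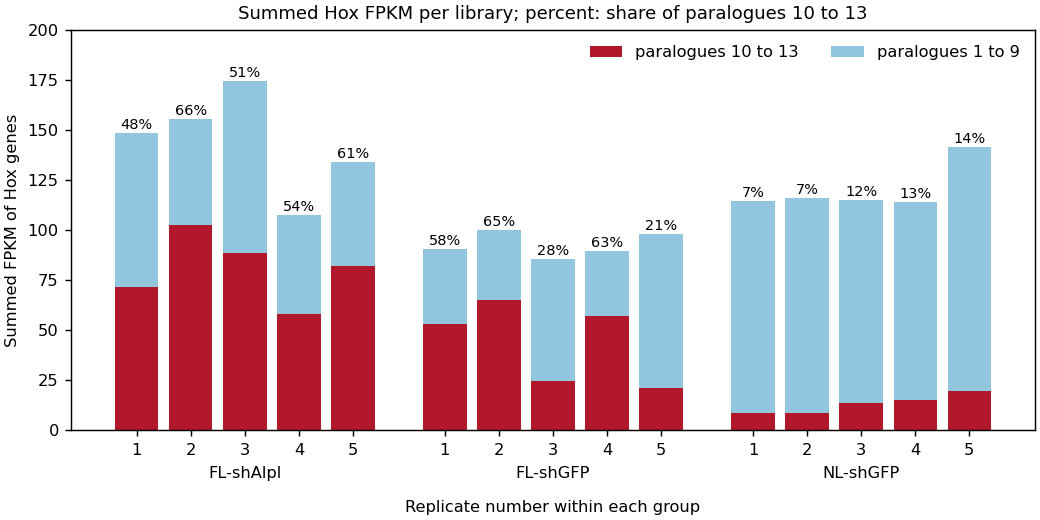
Stacked bars give the summed FPKM of Hox genes in each library (y axis) by replicate (x axis) for FL-shAlpl, FL-shGFP and NL-shGFP; red is paralogues 10 to 13, blue is paralogues 1 to 9, and the printed percent is the red share. The red share lies between 48.2 and 66% in FL-shAlpl, between 21.3 and 65.1% in FL-shGFP and between 7.21 and 13.9% in NL-shGFP libraries.

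Both sides of the share differed. Paralogues 10 to 13 summed to 80.6 ± 17.0 FPKM in FL-shAlpl, 44.0 ± 20.03 FPKM in FL-shGFP and 12.9 ± 4.74 FPKM in NL-shGFP crypts. Paralogues 1 to 9 summed to 63.5 ± 16.7 FPKM in FL-shAlpl, 48.8 ± 19.5 FPKM in FL-shGFP and 107 ± 8.79 FPKM in NL-shGFP crypts (SD, n = 5 each). In both sums neither fatty liver group overlapped NL-shGFP. The total over all 37 members was 144 ± 25.1 FPKM in FL-shAlpl, 92.8 ± 6.0 FPKM in FL-shGFP and 120.2 ± 11.9 FPKM in NL-shGFP crypts, and every FL-shAlpl library was above every FL-shGFP library. Between FL-shAlpl and FL-shGFP both partial sums overlapped.

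Among paralogue numbers, 13 took the largest part of the posterior signal. Paralogue 13 summed to 68.8 ± 14.2 FPKM in FL-shAlpl, 38.4 ± 18.3 FPKM in FL-shGFP and 6.73 ± 1.81 FPKM in NL-shGFP crypts. Paralogue 10 summed to 10.4 ± 2.72 FPKM in FL-shAlpl, 5.10 ± 1.67 FPKM in FL-shGFP and 4.80 ± 2.37 FPKM in NL-shGFP crypts. Paralogue 11 summed to 1.13 ± 0.449 FPKM in FL-shAlpl, 0.467 ± 0.120 FPKM in FL-shGFP and 1.35 ± 0.929 FPKM in NL-shGFP crypts, so it did not share the order of paralogue 13. Going down the axis, paralogue 9 summed to 21.5 ± 4.21, 17.5 ± 6.26 and 26.8 ± 2.70 FPKM in FL-shAlpl, FL-shGFP and NL-shGFP crypts. Paralogue 6 showed a wider gap between diets, with 10.7 ± 4.76, 8.27 ± 4.79 and 28.3 ± 4.94 FPKM in the same order.

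**Figure D2:**
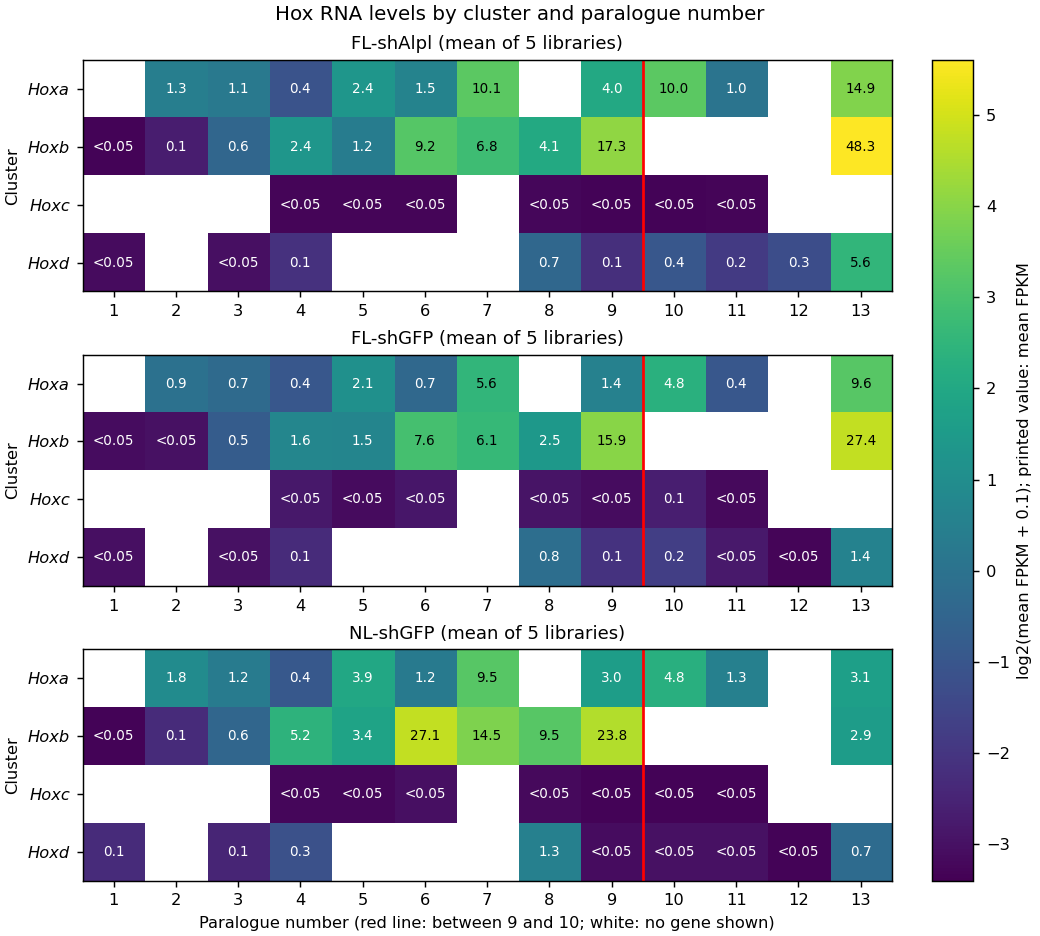
Each panel is a group (FL-shAlpl on top, then FL-shGFP and NL-shGFP), with cluster on the y axis and paralogue number on the x axis; colour gives log2(mean FPKM + 0.1) over 5 libraries, the printed number is the mean FPKM, and white cells have no gene shown. The Hoxa and Hoxb rows hold the highest values, the Hoxc row is near 0, and the paralogue 13 column is highest in FL-shAlpl.

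The clusters contributed unequally. Hoxb genes gave 62.7 ± 3.78% of the Hox FPKM in FL-shAlpl, 68.0 ± 6.44% in FL-shGFP and 73.1 ± 7.97% in NL-shGFP crypts. Hoxa genes gave 32.3 ± 5.28%, 28.8 ± 6.29% and 24.6 ± 8.19% in the same groups, and Hoxd genes 4.94 ± 2.79%, 2.93 ± 1.03% and 2.27 ± 0.658% (SD, n = 5 each). Hoxc genes gave at most 0.393% in any library. Within Hoxb, Hoxb13 alone made up 54.4 ± 10.7% of the cluster in FL-shAlpl, 45.1 ± 23.4% in FL-shGFP and 3.36 ± 0.941% in NL-shGFP crypts. Within Hoxa, paralogues 10 to 13 made up 54.4 ± 6.32%, 53.6 ± 11.9% and 29.7 ± 3.23%, and within Hoxd 83.7 ± 9.90%, 53.9 ± 24.1% and 28.3 ± 12.1%, in the same order of groups. Thus the posterior share was higher than in NL-shGFP in each of the 3 expressed clusters, with no overlap in Hoxa and Hoxb for either fatty liver group, and for FL-shAlpl alone in Hoxd.

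Fatty liver against normal liver under the same control vector (FL-shGFP against NL-shGFP) compares the 2 diets and liver states. The stretch of colon sampled cannot be told apart from them here. Hoxb13, Hoxa13, Hoxd9 and Hoxd10 rose, while 15 members fell, among them 7 Hoxb genes (Hoxb2 and Hoxb4 to Hoxb9), 6 Hoxa genes (Hoxa2, Hoxa3, Hoxa5, Hoxa7, Hoxa9 and Hoxa11) and Hoxd3 and Hoxd4. Of the 27 members that passed the filter on low counts, 19 (70.4%) were thus called, beside a background of 46.7% of the 17404 genes tested (edgeR quasi-likelihood test, adjusted p under 0.05 over all genes tested). The 4 that rose (14.8%) stand beside 25.1% of all genes, and the 15 that fell (55.6%) beside 21.6%. The median log2 fold change of the tested members was -0.80, beside -0.002 over all genes. By number, 14 of 20 tested paralogues 1 to 9 fell and 1 rose, whereas 3 of 7 tested paralogues 10 to 13 rose and 1 fell. Hoxd9 and Hoxd10 passed the filter through fatty liver libraries, where they were high, and Hoxb2 and Hoxd3 mainly through NL-shGFP libraries. The calls of these genes are thus partly set by the filter. In FPKM, 9 members lay wholly below the NL-shGFP range, beside 9.23% of genes, and 2 wholly above it, beside 19.7%. With a stromal score (mean log2 CPM of fibroblast and smooth muscle markers) as a covariate, where fibroblast sums were 107 to 442 CPM in FL-shGFP and 48.2 to 114 CPM in NL-shGFP libraries, 8 members were called, beside 15.5% of all genes in that fit. Of these, Hoxb13 and Hoxd9 were higher and Hoxa2, Hoxa3, Hoxa5, Hoxa7, Hoxa9 and Hoxd8 were lower. With the close NL-shGFP libraries summed, 17 were called, beside 33.6% of all genes, and Hoxd3 and Hoxd10 lost their calls (adjusted p = 0.0858 and 0.0595).

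Alpl knockdown within fatty liver (FL-shAlpl against FL-shGFP) compares the knockdown with its control vector on the same diet. The stretch of colon sampled cannot be told apart from group here. Here 7 members rose, all in Hoxa save Hoxd13: Hoxa3, Hoxa6, Hoxa7, Hoxa9, Hoxa10 and Hoxa11. This was 25.9% of the 27 tested members, beside 36.0% called among all genes in either direction and 18.0% called higher. By the edgeR test 0 members fell, beside 17.9% of all genes; 0 fell at an unadjusted p under 0.05, and DESeq2 called 3 rarely detected members lower (Hoxc6, Hoxc8 and Hoxc10) and 9 higher. The median log2 fold change was 0.48, beside -0.004 over all genes. In FPKM, 4 members (Hoxa3, Hoxa7, Hoxa9 and Hoxa10) lay wholly above the FL-shGFP range, beside 5.32% of genes, and 0 wholly below it, beside 8.52%. None of the 9 tested Hoxb genes was called by the main edgeR fit (1 higher and 0 lower at an unadjusted p under 0.05, and 0 with DESeq2). Hoxb13 was called higher in 3 of 29 alternatives, Hoxb8 in 2 of 29 and Hoxb2 in 1 of 27. The count of called members was 2 without FL-shGFP replicate 3 or without FL-shAlpl replicate 2, 3 without FL-shGFP replicate 1, FL-shGFP replicate 5 or FL-shAlpl replicate 3, and 4 without FL-shGFP replicate 4. With the stromal score as covariate 3 were called, beside 12.9% of all genes in that fit. With the close NL-shGFP libraries summed, 7 were called, beside 30.5% of all genes, with Hoxd12 called higher and Hoxd13 no longer called (adjusted p = 0.0575). Hoxd12 passed the filter of that fit through FL-shAlpl libraries, where it was high, so its call is partly set by the filter.

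Fatty liver with the knockdown against normal liver (FL-shAlpl against NL-shGFP) compares the crypts with both the diet and the knockdown to the normal diet controls. Hoxb13, Hoxa13, Hoxd9, Hoxd10, Hoxd11 and Hoxd13 rose, and Hoxb4 to Hoxb9, Hoxa5, Hoxd3, Hoxd4 and Hoxd8 fell. These 16 of 27 tested members (59.3%) stand beside 17.4% of all genes called, with 6 higher (22.2%, beside 9.31%) and 10 lower (37.0%, beside 8.12%). The median log2 fold change was -0.38, beside 0.05 over all genes. Of 7 tested paralogues 10 to 13, 5 rose and 0 fell in the edgeR test (0 at an unadjusted p under 0.05 and 0 with DESeq2). Hoxd9, Hoxd10 and Hoxd11, with 7, 8 and 21 summed counts in NL-shGFP, passed the filter mainly through fatty liver libraries, where they were higher. Hoxd3 passed mainly through NL-shGFP libraries. The calls of these genes are thus partly set by the filter. In FPKM, 3 members lay wholly above the NL-shGFP range, beside 11.2% of genes, and 7 wholly below it, beside 4.16%. Scaling by library totals alone, which moved the median of all genes by 0.14 on the log2 scale, gave 7 higher and 6 lower. The count was 8 without FL-shAlpl replicate 2 and 9 without NL-shGFP replicate 3. With the close NL-shGFP libraries summed, 5 were called, beside 7.27% of all genes: Hoxb13, Hoxa13 and Hoxd12 higher and Hoxb5 and Hoxb6 lower. Hoxd12 passed the filter of that fit through FL-shAlpl libraries, where it was high, so its call is partly set by the filter. The other 12 calls of the main fit were lost in the summed fit, at adjusted p values from 0.0587 for Hoxd10 to 0.141 for Hoxd9. The 3 comparisons share groups, so their calls are not independent of each other.

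**Figure D3:**
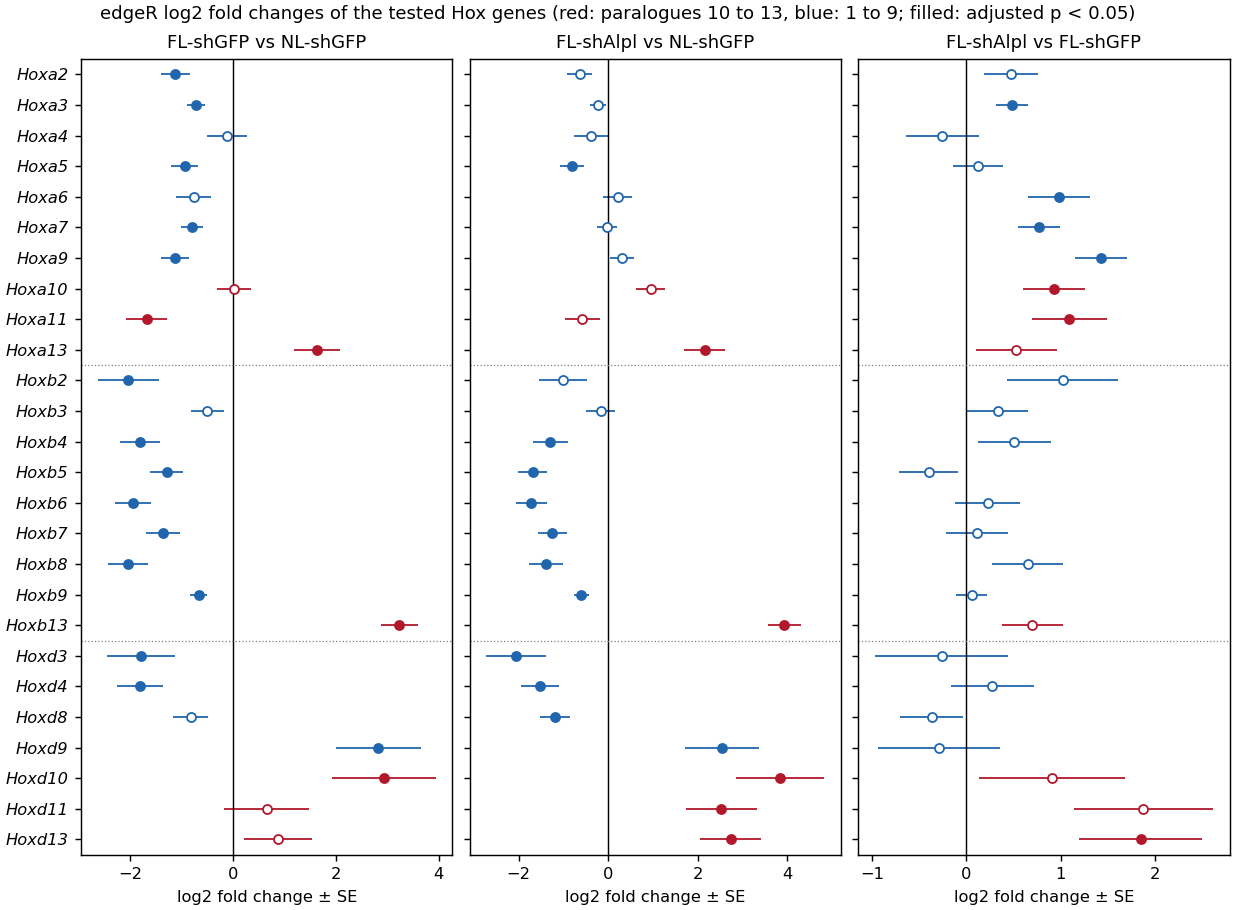
Points give the edgeR log2 fold change with its SE (x axis) of the tested Hox genes shown (y axis) in the 3 comparisons, red for paralogues 10 to 13, blue for 1 to 9, filled where the adjusted p was below 0.05. Filled blue points lie mostly left of 0 against NL-shGFP, filled red points mostly right of it, and all 7 filled points lie right of 0 in FL-shAlpl against FL-shGFP.

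Hoxb13, the most posterior Hoxb gene and a marker of hindgut and prostate epithelium, was the most abundant member over all libraries. Hoxb13 had 41.9, 59.6, 48.6, 39.1 and 52.2 FPKM in the FL-shAlpl libraries, 34.7, 40.9, 14.7, 34.7 and 12 FPKM in the FL-shGFP libraries and 2.23, 2.42, 3.14, 3.76 and 2.88 FPKM in the NL-shGFP libraries. Every fatty liver library lay above every NL-shGFP library, and FL-shGFP replicates 3 and 5 lay well below the other FL-shGFP libraries. The log2 fold change was 3.23 ± 0.36 in FL-shGFP against NL-shGFP (edgeR adjusted p = 2.14e-05) and 3.93 ± 0.37 in FL-shAlpl against NL-shGFP (adjusted p = 3.04e-05), higher in 5 of 5 libraries each time. Against FL-shGFP, FL-shAlpl differed by 0.70 ± 0.33 (adjusted p = 0.104), which did not pass, although 3 of 29 alternatives called it higher. Hoxb13 was the top Hox gene of all 5 FL-shAlpl libraries and of FL-shGFP replicates 1, 2 and 4, while Hoxb9 led in FL-shGFP replicates 3 and 5 and in NL-shGFP replicate 4, and Hoxb6 led in the other four NL-shGFP libraries. Without Hoxb13, the mean share of paralogues 10 to 13 was 27.5% in FL-shGFP and 8.37% in NL-shGFP crypts. This was a difference of 19.1 percentage points at a pooled SD of 10.5 points, and FL-shGFP replicate 5 then lay within the NL-shGFP range. In FL-shAlpl the mean was 33.7%, which was 25.4 points above NL-shGFP at a pooled SD of 5.57 points.

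Hoxa13, which the mouse needs for the terminal hindgut and the limb tips, followed the same order. Hoxa13 had 8.18, 23.2, 17, 8.73 and 17.6 FPKM in the FL-shAlpl libraries, 10.6, 13, 4.99, 14.7 and 4.82 FPKM in the FL-shGFP libraries and 1.27, 1.97, 3.39, 3.95 and 4.98 FPKM in the NL-shGFP libraries. All FL-shAlpl libraries exceeded all NL-shGFP libraries, while FL-shGFP replicates 3 and 5 fell within or beside the upper NL-shGFP values. It rose by a log2 fold change of 1.63 ± 0.45 in FL-shGFP against NL-shGFP (edgeR adjusted p = 0.00874; 0.285 with the stromal score as covariate) and of 2.16 ± 0.46 in FL-shAlpl against NL-shGFP (adjusted p = 0.00527). Hoxd13, which acts with Hoxa13 in limb, genital and anorectal development, was high only in some libraries. Hoxd13 had 10.5, 4.54, 8.85, 2.15 and 2.04 FPKM in the FL-shAlpl libraries, 1.26, 3.98, 0.89, 0.387 and 0.462 FPKM in the FL-shGFP libraries and 1.05, 0.701, 0.856, 0.879 and 0.182 FPKM in the NL-shGFP libraries. FL-shAlpl replicates 1 and 3 and FL-shGFP replicate 2 stood out within their groups. The log2 fold change was 1.85 ± 0.65 in FL-shAlpl against FL-shGFP (adjusted p = 0.0385) and 2.74 ± 0.68 in FL-shAlpl against NL-shGFP (adjusted p = 0.0133, 0.0643 with the close NL-shGFP libraries summed), and 0.88 ± 0.66 in FL-shGFP against NL-shGFP did not pass (adjusted p = 0.284). The call against FL-shGFP was lost without FL-shGFP replicate 1, 3, 4 or 5 and without FL-shAlpl replicate 1, 2 or 3 (adjusted p = 0.344 with the stromal score as covariate).

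**Figure D4:**
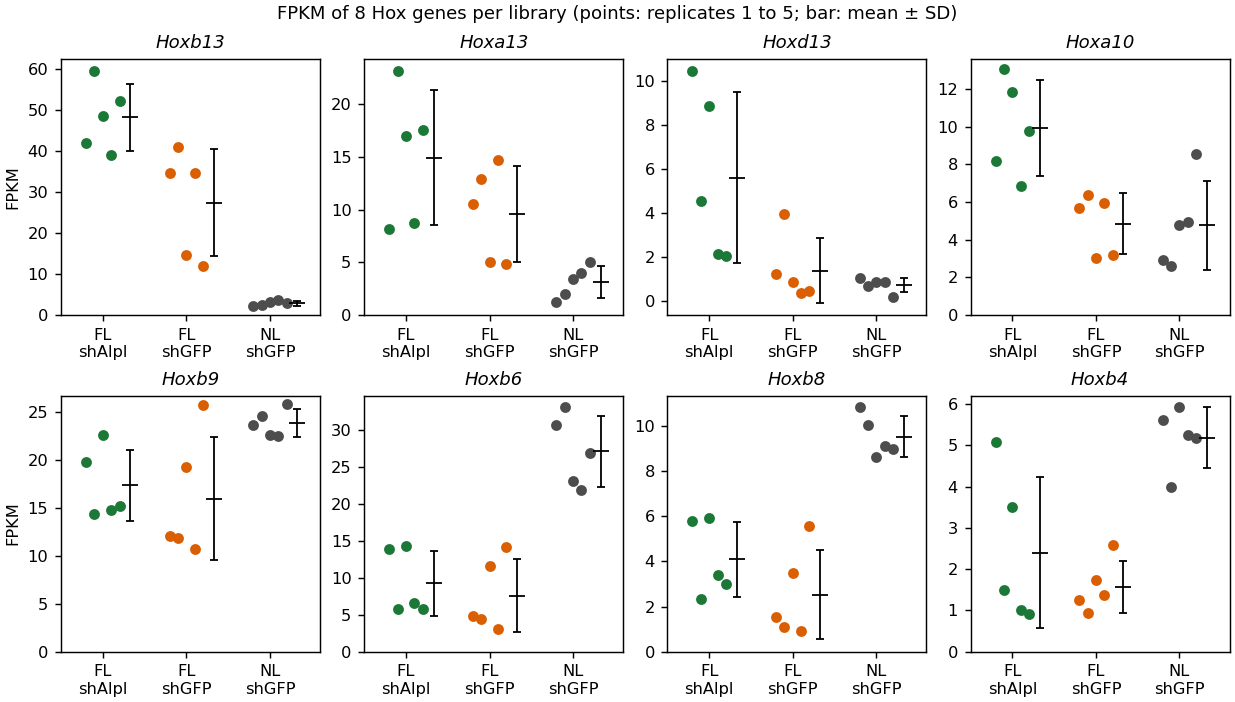
Points give the FPKM (y axis) of 8 Hox genes in each of 5 libraries per group (x axis, FL-shAlpl, FL-shGFP and NL-shGFP), with the mean and SD beside them. Hoxb13 and Hoxa13 are lowest in NL-shGFP, Hoxb6 and Hoxb8 are highest there, and in FL-shGFP the same 2 libraries are low for Hoxb13 and high for Hoxb6, Hoxb8 and Hoxb9.

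The rest of the 5′ Hoxd genes, which act in limb, genital and sphincter development, were rare. Hoxd9 had 0.247, 0.16, 0.121, 0.0211 and 0.0445 FPKM in the FL-shAlpl libraries, 0.272, 0.0725, 0.177, 0.050 and 0.117 FPKM in the FL-shGFP libraries and 0, 0, 0.0138, 0.0454 and 0.0281 FPKM in the NL-shGFP libraries. Hoxd10 had 0.653, 0.376, 0.855, 0.0744 and 0.131 FPKM in the FL-shAlpl libraries, 0.32, 0.0426, 0.209, 0.367 and 0.0689 FPKM in the FL-shGFP libraries and 0, 0, 0.0975, 0.0267 and 0 FPKM in the NL-shGFP libraries. These values rest on summed counts of 66, 70 and 7 for Hoxd9 and 191, 81 and 8 for Hoxd10 in FL-shAlpl, FL-shGFP and NL-shGFP. Both genes passed the filter through the fatty liver libraries, where they were high, so the rises given next are partly set by the filter. Hoxd9 rose in FL-shGFP against NL-shGFP by a log2 fold change of 2.83 ± 0.82 (edgeR adjusted p = 0.0114) and in FL-shAlpl against NL-shGFP by 2.54 ± 0.83 (adjusted p = 0.045). Hoxd10 rose by 2.93 ± 1.0 (adjusted p = 0.0259) and 3.84 ± 0.99 (adjusted p = 0.0145) in the same comparisons. Of the 27 alternatives that tested them, the Hoxd9 call was made in 27 for FL-shGFP and 11 for FL-shAlpl, and the Hoxd10 call in 19 for FL-shGFP and 26 for FL-shAlpl, each against NL-shGFP. With the close NL-shGFP libraries summed, the adjusted p in FL-shAlpl against NL-shGFP was 0.141 for Hoxd9 and 0.0587 for Hoxd10. Fitted folds of such low genes depend on the prior count. Hoxd11, with 188, 42 and 21 summed counts in FL-shAlpl, FL-shGFP and NL-shGFP, rose in FL-shAlpl against NL-shGFP by 2.53 ± 0.79 (adjusted p = 0.0367), a call lost in 8 of 28 alternatives (adjusted p = 0.1095 with the close NL-shGFP libraries summed). Hoxd12 did not pass the filter and had 98, 63, 46, 0 and 2 counts in the FL-shAlpl libraries, 0, 2, 0, 0 and 0 in the FL-shGFP libraries and 0 in all NL-shGFP libraries. Its RNA was thus present in 4 of 5 FL-shAlpl libraries and clearly above 2 counts in replicates 1 to 3 of that group, the 3 libraries with the most Hoxd13. Scaled to library totals and pooled over libraries, the Hoxd12 level in FL-shAlpl was 52.6 times that in NL-shGFP at a floor of 3 counts over the group. It was 99.4 times that in FL-shGFP (95% interval 27.2 to 827, counting error only). Both take counts as independent, although fragments appear to enter mostly as 2, so the floor is too low and the interval too narrow. Neither holds for each library, since FL-shAlpl replicates 4 and 5 had 0 and 2 counts. Hoxd12 entered 3 of the alternative fits: edgeR without the filter, edgeR with the close NL-shGFP libraries summed, and DESeq2. In these it was called higher in FL-shAlpl against FL-shGFP (adjusted p = 0.0155, 0.0106 and 0.0213) and in FL-shAlpl against NL-shGFP (adjusted p = 0.0232, 0.0417 and 0.0141), with the fits in the same order. In the summed fit it passed the filter through FL-shAlpl replicates 1 to 3, where it was high, so its calls there are partly set by the filter. The calls of all 3 fits rest on those same libraries and do not back each other.

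The central Hoxb genes, used in the trunk and midgut, moved the other way. Hoxb6 had 13.8, 5.69, 14.2, 6.63 and 5.81 FPKM in the FL-shAlpl libraries, 4.76, 4.43, 11.5, 3.0 and 14.1 FPKM in the FL-shGFP libraries and 30.6, 33.1, 23.1, 21.8 and 26.9 FPKM in the NL-shGFP libraries. Hoxb9 had 19.8, 14.3, 22.6, 14.7 and 15.2 FPKM in the FL-shAlpl libraries, 12.1, 11.9, 19.2, 10.7 and 25.7 FPKM in the FL-shGFP libraries and 23.6, 24.6, 22.5, 22.5 and 25.9 FPKM in the NL-shGFP libraries. Hoxb6 of every fatty liver library lay below the NL-shGFP range, whereas Hoxb9 overlapped through FL-shGFP replicate 5 and FL-shAlpl replicate 3. In FL-shGFP against NL-shGFP, Hoxb6 fell by 1.94 ± 0.36 and Hoxb9 fell by 0.66 ± 0.17 on the log2 scale (edgeR adjusted p = 0.000664 and 0.00489). In FL-shAlpl against NL-shGFP, Hoxb6 fell by 1.71 ± 0.35 (adjusted p = 0.00459) and Hoxb9 fell by 0.60 ± 0.17 (adjusted p = 0.0206). The ratio of Hoxb13 to Hoxb6 was 6.36 ± 3.30 in FL-shAlpl, 6.05 ± 4.79 in FL-shGFP and 0.112 ± 0.0426 in NL-shGFP crypts (SD, n = 5 each).

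Hoxb7 had 9.8, 4.31, 10.6, 4.45 and 5.11 FPKM in the FL-shAlpl libraries, 4.25, 2.98, 9.57, 2.73 and 10.9 FPKM in the FL-shGFP libraries and 14.6, 15.4, 14.2, 14 and 14.3 FPKM in the NL-shGFP libraries. Hoxb8 had 5.81, 2.33, 5.95, 3.4 and 3.0 FPKM in the FL-shAlpl libraries, 1.55, 1.09, 3.51, 0.931 and 5.56 FPKM in the FL-shGFP libraries and 10.9, 10.1, 8.63, 9.15 and 9.01 FPKM in the NL-shGFP libraries. For Hoxb7, used in trunk and kidney duct, and Hoxb8, known in myeloid progenitors, every NL-shGFP library lay above every fatty liver library, and FL-shGFP replicates 3 and 5 again lay above the other FL-shGFP libraries. Hoxb4 had 5.08, 1.49, 3.5, 1.0 and 0.899 FPKM in the FL-shAlpl libraries, 1.25, 0.928, 1.74, 1.36 and 2.58 FPKM in the FL-shGFP libraries and 5.6, 3.98, 5.93, 5.25 and 5.17 FPKM in the NL-shGFP libraries. Hoxb4, known for expanding blood stem cells, overlapped NL-shGFP only through FL-shAlpl replicate 1. Hoxb5 had 1.59, 0.656, 1.62, 1.12 and 0.947 FPKM in the FL-shAlpl libraries, 1.09, 0.584, 1.99, 0.967 and 2.88 FPKM in the FL-shGFP libraries and 4.18, 3.67, 3.01, 2.95 and 3.34 FPKM in the NL-shGFP libraries. Hoxb5, which acts in enteric nerve precursors, did not overlap between either fatty liver group and NL-shGFP. The 4 genes fell in FL-shGFP against NL-shGFP, with log2 fold changes of -1.36 ± 0.33 for Hoxb7, -2.03 ± 0.39 for Hoxb8, -1.80 ± 0.40 for Hoxb4 and -1.28 ± 0.32 for Hoxb5 (edgeR adjusted p 0.00449 or less). With the stromal score as covariate, the log2 fold changes of Hoxb4 to Hoxb9 in this comparison stayed negative, at -1.31 ± 0.55 for Hoxb4, -1.01 ± 0.45 for Hoxb5, -1.23 ± 0.42 for Hoxb6, -0.93 ± 0.44 for Hoxb7, -1.59 ± 0.51 for Hoxb8 and -0.53 ± 0.23 for Hoxb9, while their adjusted p values lay between 0.0501 and 0.165. In FL-shAlpl against NL-shGFP they fell as well, with log2 fold changes of -1.24 ± 0.33 for Hoxb7, -1.38 ± 0.38 for Hoxb8, -1.29 ± 0.39 for Hoxb4 and -1.69 ± 0.32 for Hoxb5 (adjusted p 0.0322 or less). Summing the close NL-shGFP libraries left Hoxb5 and Hoxb6 as the Hoxb genes called lower there, with log2 fold changes of -1.26 for Hoxb4, -1.22 for Hoxb7, -1.35 for Hoxb8 and -0.60 for Hoxb9 (adjusted p from 0.0828 to 0.114). The Hoxb4 call was lost in 10 of 29 alternatives. FL-shAlpl and FL-shGFP did not differ by the main test in Hoxb4, Hoxb5, Hoxb7 or Hoxb8, with log2 differences from -0.40 for Hoxb5 to 0.65 for Hoxb8. Hoxb8 was called higher there in 2 of 29 alternatives. Hoxb2 had 0.113, 0.0538, 0.0618, 0.0258 and 0.0341 FPKM in the FL-shAlpl libraries, 0, 0.0222, 0.0483, 0.0459 and 0.0179 FPKM in the FL-shGFP libraries and 0.139, 0.118, 0.0846, 0.111 and 0.0776 FPKM in the NL-shGFP libraries. Hoxb2, a hindbrain gene, was near the lower limit of what the libraries show and fell in FL-shGFP against NL-shGFP with a log2 fold change of -2.03 ± 0.59 (adjusted p = 0.0109). Hoxb5 and Hoxb6 overlap Hoxb5os, and Hoxb2 overlaps Hoxb3os, on the opposite strand, and the counting's strand setting was not stated.

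In the Hoxa cluster, Hoxa7 and Hoxa9 fell in FL-shGFP against NL-shGFP and rose in FL-shAlpl against FL-shGFP. Hoxa7 had 8.68, 11.7, 11.7, 7.34 and 10.9 FPKM in the FL-shAlpl libraries, 4.75, 5.96, 6.57, 4.56 and 6.24 FPKM in the FL-shGFP libraries and 6.5, 5.91, 10.4, 8.77 and 15.8 FPKM in the NL-shGFP libraries. Hoxa9 had 4.24, 4.54, 4.77, 3.66 and 2.87 FPKM in the FL-shAlpl libraries, 1.43, 1.55, 1.04, 1.62 and 1.26 FPKM in the FL-shGFP libraries and 1.8, 1.61, 2.8, 3.0 and 5.74 FPKM in the NL-shGFP libraries. FL-shAlpl libraries of Hoxa7 and Hoxa9, known for their roles in blood progenitors and leukaemia, lay wholly above FL-shGFP libraries and overlapped NL-shGFP. Hoxa9 rose in FL-shAlpl against FL-shGFP by a log2 fold change of 1.43 ± 0.28 (edgeR adjusted p = 0.00165) and Hoxa7 by 0.77 ± 0.22 (adjusted p = 0.0142). In FL-shGFP against NL-shGFP, Hoxa9 fell by 1.12 ± 0.27 (adjusted p = 0.00411) and Hoxa7 fell by 0.80 ± 0.22 (adjusted p = 0.00842). These 4 calls were made under all 29 alternatives of the fit. In FL-shAlpl against NL-shGFP the differences were 0.31 ± 0.27 for Hoxa9 and -0.03 ± 0.22 for Hoxa7 (adjusted p = 0.473 and 0.95).

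Hoxa10 had 8.2, 13.1, 11.9, 6.84 and 9.76 FPKM in the FL-shAlpl libraries, 5.68, 6.39, 3.01, 5.96 and 3.18 FPKM in the FL-shGFP libraries and 2.91, 2.63, 4.81, 4.95 and 8.57 FPKM in the NL-shGFP libraries. Hoxa10, which patterns the uterus and lumbar axis, was higher in every FL-shAlpl than in every FL-shGFP library and rose by 0.93 ± 0.33 (edgeR adjusted p = 0.0379). Its NL-shGFP replicate 5 overlapped the FL-shAlpl range, and 0.95 ± 0.33 in FL-shAlpl against NL-shGFP did not pass (adjusted p = 0.0579). Hoxa11 had 1.23, 1.4, 0.858, 0.827 and 0.447 FPKM in the FL-shAlpl libraries, 0.454, 0.584, 0.377, 0.397 and 0.255 FPKM in the FL-shGFP libraries and 0.762, 0.708, 0.993, 1.19 and 2.97 FPKM in the NL-shGFP libraries. Hoxa11, used in limb and uterus, was lowest in FL-shGFP, and NL-shGFP replicate 5 stood far above the other NL-shGFP libraries. It fell in FL-shGFP against NL-shGFP with a log2 fold change of -1.67 ± 0.40 (adjusted p = 0.00355) and rose in FL-shAlpl against FL-shGFP by 1.09 ± 0.40 (adjusted p = 0.0411). Hoxa11 had 1319 counts in all, against 3080 for its opposite-strand partner Hoxa11os, from which its reads cannot be told apart without the strand setting. The Hoxa10 call was lost in 8 and the Hoxa11 call against FL-shGFP in 12 of 29 alternatives.

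Hoxa5 had 2.48, 2.76, 2.68, 2.34 and 1.91 FPKM in the FL-shAlpl libraries, 2.4, 2.37, 1.24, 2.79 and 1.51 FPKM in the FL-shGFP libraries and 2.65, 2.82, 4.24, 3.85 and 6.07 FPKM in the NL-shGFP libraries. Hoxa5, which restrains stem cell traits in colon cancer cells, fell against NL-shGFP with a log2 fold change of -0.94 ± 0.27 in FL-shGFP (edgeR adjusted p = 0.00985) and with a log2 fold change of -0.81 ± 0.27 in FL-shAlpl (adjusted p = 0.0445), the FL-shAlpl call made in 13 of 29 alternatives (adjusted p = 0.0874 with the close NL-shGFP libraries summed). Hoxa3 had 1.02, 0.911, 1.32, 1.03 and 1.09 FPKM in the FL-shAlpl libraries, 0.784, 0.817, 0.609, 0.581 and 0.822 FPKM in the FL-shGFP libraries and 1.1, 0.84, 1.0, 1.09 and 1.76 FPKM in the NL-shGFP libraries. Hoxa2 had 0.954, 1.1, 1.97, 1.14 and 1.19 FPKM in the FL-shAlpl libraries, 0.632, 0.513, 0.972, 0.827 and 1.4 FPKM in the FL-shGFP libraries and 1.05, 1.47, 1.65, 2.01 and 2.86 FPKM in the NL-shGFP libraries. Hoxa3, a gene of the pharyngeal arches and thymus, had all FL-shGFP values below all NL-shGFP and all FL-shAlpl values, and Hoxa2, a hindbrain and arch gene, overlapped between groups. In FL-shGFP against NL-shGFP, Hoxa3 fell by 0.72 ± 0.18 (adjusted p = 0.00413) and Hoxa2 fell by 1.11 ± 0.29 (adjusted p = 0.00573). In FL-shAlpl against FL-shGFP, Hoxa3 rose by 0.48 ± 0.17 (adjusted p = 0.0412), a call made in 11 of 29 alternatives. The Hoxa3 gene spans Hoxa4, Hoxa5 and Hoxa6 on the same strand, so the authors' counting could split their reads. Of the low members of this cluster, Hoxa4 passed in no comparison, and Hoxa6 rose in FL-shAlpl against FL-shGFP by 0.98 ± 0.33 (adjusted p = 0.0308), a call lost in 7 of 29 alternatives.

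The 3′ Hoxd genes, which pattern the neck and trunk, fell with the central Hoxb genes. Hoxd4 had 0.198, 0.0926, 0.183, 0.0764 and 0.113 FPKM in the FL-shAlpl libraries, 0.0211, 0.0525, 0.178, 0.0814 and 0.191 FPKM in the FL-shGFP libraries and 0.33, 0.386, 0.38, 0.313 and 0.316 FPKM in the NL-shGFP libraries. All fatty liver libraries lay below all NL-shGFP libraries. Hoxd4 fell by 1.80 ± 0.44 in FL-shGFP against NL-shGFP (edgeR adjusted p = 0.0040) and with a log2 fold change of -1.53 ± 0.43 in FL-shAlpl against NL-shGFP (adjusted p = 0.0236). Hoxd3, which overlaps Hoxd4, fell in both as well (adjusted p = 0.037 and 0.0455), lost in 11 of 28 alternatives for FL-shGFP and in 15 of 28 for FL-shAlpl. Hoxd8 had 0.653 ± 0.246 FPKM in FL-shAlpl, 0.812 ± 0.399 FPKM in FL-shGFP and 1.35 ± 0.400 FPKM in NL-shGFP crypts (SD, n = 5 each) and fell in FL-shAlpl against NL-shGFP with a log2 fold change of -1.19 ± 0.34 (adjusted p = 0.0247). Within the Hoxd cluster, then, Hoxd3, Hoxd4 and Hoxd8 fell and Hoxd9, Hoxd10, Hoxd11 and Hoxd13 rose in FL-shAlpl against NL-shGFP. These 7 calls were lost with the close NL-shGFP libraries summed, where the log2 fold changes kept their signs and the adjusted p was 0.131 for Hoxd3, 0.0958 for Hoxd4 and 0.0901 for Hoxd8.

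The Hoxc cluster, used elsewhere in trunk and limb mesenchyme and in skin, was nearly silent, and none of its 7 genes passed the filter. All Hoxc counts together were 3, 0, 0, 4 and 3 in FL-shAlpl, 27, 4, 19, 30 and 33 in FL-shGFP and 6, 8, 2, 6 and 0 in NL-shGFP libraries. FL-shGFP, the group with the highest smooth muscle and leukocyte marker sums above, had the highest Hoxc counts, a link that was not tested. Hoxb1, Hoxd1 and the 7 Hoxc genes, with Hoxd12, are the 10 members that did not pass the filter. Hoxd1 had 6 counts in FL-shAlpl, 10 in FL-shGFP and 37 in NL-shGFP over 5 libraries each, and Hoxb1 0, 10 and 0. Of the rest, Hoxb3 passed in no comparison, at 0.644 ± 0.250, 0.483 ± 0.225 and 0.647 ± 0.0779 FPKM in FL-shAlpl, FL-shGFP and NL-shGFP.

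Other transcripts of the clusters were set beside the Hox genes. Hottip, the long noncoding RNA at the Hoxa13 end of its cluster that helps keep 5′ Hoxa genes active, had 1.8, 7.89, 7.28, 3.19 and 7.3 FPKM in FL-shAlpl, 4.18, 5.82, 3.12, 4.93 and 2.6 FPKM in FL-shGFP and 0.308, 0.202, 0.656, 0.413 and 0.992 FPKM in NL-shGFP libraries. The fatty liver groups did not overlap NL-shGFP, with log2 fold changes of 3.33 ± 0.49 for FL-shAlpl (edgeR adjusted p = 0.000564) and 3.01 ± 0.49 for FL-shGFP (adjusted p = 2.77e-04). Hoxaas3, which overlaps Hoxa3 to Hoxa7 on the opposite strand, fell by 0.81 ± 0.20 in FL-shAlpl against NL-shGFP and with a log2 fold change of -1.47 ± 0.20 in FL-shGFP against NL-shGFP (adjusted p = 0.0122 and 7.93e-05), and rose by 0.66 ± 0.20 in FL-shAlpl against FL-shGFP (adjusted p = 0.0198). Hoxb5os fell by 2.22 ± 0.59 in FL-shGFP against NL-shGFP (adjusted p = 0.00706). Haglr, antisense beside Hoxd1 and Hoxd3, fell by 3.11 ± 0.70 in FL-shAlpl and with a log2 fold change of -2.43 ± 0.67 in FL-shGFP, each against NL-shGFP (adjusted p = 0.00705 and 0.00837). Of 16 such transcripts listed, 9 were in the table and 8 were tested. In FL-shGFP against NL-shGFP 1 rose and 3 fell (median log2 fold change -0.63), in FL-shAlpl against FL-shGFP 1 rose and 0 fell (1 fell at an unadjusted p under 0.05 and 0 with DESeq2; median 0.47), and in FL-shAlpl against NL-shGFP 1 rose and 3 fell (median -0.60). Calls took 46.7%, 36.0% and 17.4% of all genes in the same order of comparisons.

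Among the caudal and other gut position factors, the counts were small. In FL-shGFP against NL-shGFP 1 of 13 tested rose and 5 fell (median log2 fold change -0.23), in FL-shAlpl against FL-shGFP 3 rose and 2 fell (median 0.49), and in FL-shAlpl against NL-shGFP 1 rose and 2 fell (median 0.06). Among all genes, 46.7%, 36.0% and 17.4% were called in these comparisons, in the same order. Cdx2, the caudal factor that sets intestinal identity, averaged 70.5 ± 12.1 FPKM in FL-shAlpl, 51.3 ± 13.4 in FL-shGFP and 78.9 ± 2.26 in NL-shGFP crypts (SD, n = 5 each). It fell by 0.69 ± 0.12 in FL-shGFP against NL-shGFP, with no overlap (edgeR adjusted p = 4.93e-04), and rose by 0.38 ± 0.12 in FL-shAlpl against FL-shGFP (adjusted p = 0.0245). Cdx1 averaged 169 ± 19 FPKM in FL-shAlpl, 109.6 ± 21.5 in FL-shGFP and 129 ± 16.3 in NL-shGFP crypts and rose by 0.55 ± 0.11 in FL-shAlpl against FL-shGFP, with no overlap (adjusted p = 0.0021). Osr2 fell by 1.16 ± 0.24 in FL-shAlpl against NL-shGFP (adjusted p = 0.00487), and Evx2, the gene next to Hoxd13, rose by 3.48 ± 0.94 (adjusted p = 0.019) at 0.123 ± 0.108 FPKM in FL-shAlpl and 0.00927 ± 0.00917 FPKM in NL-shGFP crypts. Hnf4a and Gata6, the most abundant ones called in no comparison, had log2 differences of 0.02 ± 0.13 and 0.14 ± 0.08 in FL-shGFP against NL-shGFP.

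Of the 9 TALE cofactors, all tested, 4 rose and 2 fell in FL-shGFP against NL-shGFP (median log2 fold change 0.35), 2 rose and 3 fell in FL-shAlpl against FL-shGFP (median -0.47), and 0 were called by edgeR in FL-shAlpl against NL-shGFP (1 at an unadjusted p under 0.05 and 0 with DESeq2; median -0.05). The shares of all genes called were 46.7%, 36.0% and 17.4% in the same order. Pbx3 averaged 1.04 ± 0.41 FPKM in FL-shAlpl, 0.577 ± 0.167 in FL-shGFP and 1.19 ± 0.114 in NL-shGFP crypts. It fell by 1.12 ± 0.23 in FL-shGFP against NL-shGFP (edgeR adjusted p = 0.00128) and rose by 0.76 ± 0.23 in FL-shAlpl against FL-shGFP (adjusted p = 0.0176). Pknox1 moved likewise, by -0.44 ± 0.10 and 0.40 ± 0.10 (adjusted p = 0.00293 and 0.00859). Meis1 and Meis2, which are also strong in stroma, rose in FL-shGFP against NL-shGFP, with a mean below 0.1 FPKM in every group. Pbx2, the most abundant cofactor, was not called in any comparison, at 9.18 ± 1.18 FPKM in FL-shAlpl, 9.05 ± 1.41 in FL-shGFP and 8.84 ± 1.88 in NL-shGFP crypts.

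Polycomb genes, 22 listed and tested, gave 5 higher and 7 lower calls in FL-shGFP against NL-shGFP (median log2 fold change -0.13), 3 higher and 1 lower in FL-shAlpl against FL-shGFP (median 0.06), and 1 higher and 3 lower in FL-shAlpl against NL-shGFP (median 0.03). These counts stand beside 46.7%, 36.0% and 17.4% of all genes called in the same order of comparisons. Cbx2, a subunit that reads the repressive histone mark, averaged 1.17 ± 0.359 FPKM in FL-shAlpl, 0.435 ± 0.198 in FL-shGFP and 1.17 ± 0.121 in NL-shGFP crypts. It fell by 1.49 ± 0.26 in FL-shGFP against NL-shGFP (edgeR adjusted p = 4.65e-04) and rose by 1.36 ± 0.26 in FL-shAlpl against FL-shGFP (adjusted p = 0.00169). Eed, a core subunit, moved by -0.40 ± 0.10 and 0.48 ± 0.10 in the same comparisons (adjusted p = 0.00441 and 0.00231), while Suz12 was not called at -0.20 ± 0.18 and 0.30 ± 0.18. Phf1 moved the other way, by 0.55 ± 0.18 and -1.32 ± 0.18 (adjusted p = 0.0207 and 0.000186). Ezh1 and Bmi1 rose in FL-shGFP against NL-shGFP, by 0.54 ± 0.10 and 0.51 ± 0.12 (adjusted p = 0.00080 and 0.00283). Trithorax and H3K27 demethylase genes, 14 listed and tested, gave 3 higher and 6 lower calls in FL-shGFP against NL-shGFP (median -0.19), 7 higher and 2 lower in FL-shAlpl against FL-shGFP (median 0.07), and 1 higher in FL-shAlpl against NL-shGFP (median 0.03). The same shares of all genes stand beside them. Men1, the menin subunit, fell by 0.84 ± 0.17 in FL-shGFP against NL-shGFP (adjusted p = 0.00144) and rose by 0.68 ± 0.17 in FL-shAlpl against FL-shGFP (adjusted p = 0.0080). Mllt3, a reader of active chromatin, moved the other way, by 1.35 ± 0.20 and -0.91 ± 0.19 (adjusted p = 1.12e-04 and 0.00287).

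Genes that differ along the human colon were set beside the Hox genes, a role known here from human and not from mouse tissue. Of the distal genes, Insl5, Cldn8, Wfdc2 and Spon1 were tested. All 4 rose in FL-shGFP against NL-shGFP (median log2 fold change 2.03), 1 rose and 1 fell in FL-shAlpl against FL-shGFP (median -0.07), and 3 rose in FL-shAlpl against NL-shGFP (median 2.64). Beside them, 46.7%, 36.0% and 17.4% of all genes were called in the same order of comparisons. Cldn8, a tight junction claudin, averaged 68.1 ± 42.1 FPKM in FL-shAlpl, 59.4 ± 10.5 in FL-shGFP and 9.73 ± 1.85 in NL-shGFP crypts (SD, n = 5 each) and rose by 2.72 ± 0.41 in FL-shAlpl and 2.58 ± 0.40 in FL-shGFP, each against NL-shGFP (edgeR adjusted p = 0.000594 and 2.17e-04). Wfdc2, a secreted protease inhibitor, averaged 139 ± 30.4 FPKM in FL-shAlpl, 61.4 ± 17.2 in FL-shGFP and 21.5 ± 1.52 in NL-shGFP crypts and rose in all 3 comparisons, each with no overlap. Insl5, a hormone of distal colon endocrine cells, had 11.2, 53.2, 41.7, 26.8 and 101 FPKM in FL-shAlpl, 92.5, 76.3, 7.85, 78.5 and 7.41 FPKM in FL-shGFP and 4.42, 6.15, 4.4, 4.56 and 9.96 FPKM in NL-shGFP libraries. In FL-shGFP replicates 3 and 5, the libraries with low Hoxb13, Insl5 was at the NL-shGFP level. Of the proximal genes, Slc51a and Slc51b, the basolateral bile acid transporter, rose in FL-shGFP against NL-shGFP by 2.72 ± 0.34 and 3.05 ± 0.33 (adjusted p = 4.05e-05 and 1.70e-05) and fell in FL-shAlpl against FL-shGFP, with log2 fold changes of -1.98 ± 0.32 and -2.09 ± 0.31 (adjusted p = 0.000654 and 3.61e-04). In FL-shGFP against NL-shGFP the distal genes thus rose beside Hoxb13, and so did both of these proximal genes. The stretch of colon in each library was not stated, so group and sampled stretch cannot be told apart here.

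FL-shGFP replicates 3 and 5 carried the pattern of low Hoxb13 and Hoxa13 with high Hoxb6 to Hoxb9 inside 1 group. Their fibroblast marker sums were 155.0 and 220.4 CPM, within the range of 107 to 442 CPM of the group, and their smooth muscle sums 4.82 and 9.83 CPM, within 4.82 to 21.0 CPM. Their sums of leukocyte (149 and 104 CPM), epithelium (8111 and 6701 CPM), colon epithelium (19790.0 and 17790.0 CPM) and small intestine markers (215.8 and 151.1 CPM) were the lowest of the group. The stem cell sum was the highest of the group in replicate 5, at 75.95 CPM, and lay within the range of the other libraries in replicate 3, at 42.8 CPM. Their part in the Hox levels was not tested. Even in these 2 libraries Hoxb13 stood at 14.7 and 12 FPKM, above the highest NL-shGFP value of 3.76 FPKM, and Hoxb6 at 11.5 and 14.1 FPKM, below the lowest NL-shGFP value of 21.8 FPKM.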

How the data were processed

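RNA of colonic crypts was measured in 15 libraries, 5 in each of 3 groups, by the labels' group names. The authors deposited raw counts per gene and FPKM values; reads were aligned with HISAT2 per the submitters' processing notes, and for the counting tool, strand setting, genome build and annotation no statement was found (not given in the sources used here). FPKM as deposited equal counts divided by 1 length per gene and the library total. Of counts between 1 and 12, 72.4 to 77.2% were even, so most fragments appear to enter as 2, and counting intervals, which cover counting error only, are then too narrow.

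Genes were tested with edgeR 4.0.16 (quasi-likelihood, robust, TMM scaling, filterByExpr, a mean per group, 12 residual degrees of freedom; R 4.3.3), with Benjamini-Hochberg adjustment over 17404 genes and a threshold of 0.05; 15535 genes did not pass the filter. The fit was tested on simulated data. Sums and shares used FPKM and have no test. Alternatives used DESeq2 1.42.0, limma 3.58.1, other scalings and filters, a replicate block, left-out libraries and a stromal score. Positions are from GENCODE on GRCm38, matched by Ensembl ID.

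Values in every library are given for the 12 members with the highest mean FPKM and the 8 other called members with the smallest adjusted p; of each other list, up to 4 called genes per comparison and 2 abundant ones not called were eligible. Hoxd8, Hoxd11, Hoxd12, Hoxb3 and the Hoxc counts were added after their values were seen. Members and lists were chosen with earlier results of these data known. Some members of the lists are not reported here by name. Replicate numbers did not pair the libraries: same-number deviations correlated between -0.583 and 0.459, and 6 of 15 pairs exceeded 0.1.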

Additional observations from a re-analysis of the deposited data

Results flagged for a closer look

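In 5 of 69 groups of Hox values, 1 of 5 libraries lay far from the other four by Dixon's criterion, which chance alone meets in about 1 in 20 groups. Hoxd13 stood at 3.983 FPKM in FL-shGFP replicate 2, above the rest of that group. Hoxa2 stood at 1.968 FPKM in FL-shAlpl replicate 3. In NL-shGFP, replicate 5 was high for Hoxa11 (2.97 FPKM) and Hoxa3 (1.759 FPKM), and replicate 3 was high for Hoxd10 (0.09747 FPKM).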

How the results depend on the processing

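Of 42 Hox calls over the 3 comparisons, 0 changed sign under the alternatives that tested them, 27 to 29 for each call, and 13 were made under each of these. With the stromal score as covariate, 2706 genes and 8 Hox genes were called in FL-shGFP against NL-shGFP, and 2245 genes and 3 Hox genes in FL-shAlpl against FL-shGFP. DESeq2 called 12 Hox genes in FL-shAlpl against FL-shGFP. Summing the close NL-shGFP libraries gave 1340.0 genes and 5 Hox genes in FL-shAlpl against NL-shGFP and 17 Hox genes in FL-shGFP against NL-shGFP. Voom with quality weights called 5259 genes in FL-shAlpl against NL-shGFP. The replicate block, whose numbers do not pair the libraries (4 of 15 matched their own number best), gave 20, 3 and 13 Hox genes in FL-shGFP against NL-shGFP, FL-shAlpl against FL-shGFP and FL-shAlpl against NL-shGFP. Leaving out 1 library at a time gave 17 to 20, 2 to 8 and 8 to 16 Hox genes in the same order, and 6841 to 8816, 4635 to 7158 and 1979 to 3523 genes, the lowest of the last without FL-shAlpl replicate 2. The difference in the share of paralogues 10 to 13 was then 32.3 to 43.2, 2.20 to 13.1 and 42.9 to 47.4 percentage points. Without Hoxb13 it was 19.1 points in FL-shGFP against NL-shGFP, where the libraries of the groups then overlapped. It was 25.4 points in FL-shAlpl against NL-shGFP without Hoxb13, and 38.1 points there when paralogue 9 was counted with 10 to 13. Scaling by library totals alone split the calls of all genes into 4521 higher and 2347 lower in FL-shGFP against NL-shGFP and into 2783 higher and 930 lower in FL-shAlpl against NL-shGFP, and upper quartile factors into 1227 higher and 1673 lower in the last. The cause of these changes was not tested. Depth limits the Hoxc genes, Hoxb1, Hoxd1 and Hoxd9 to Hoxd12, which rest on few counts.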
